A study of Mus musculus with 7 samples.

Results

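The late intestine and colon regions are stretches of open chromatin that carried an ATAC-seq peak in the intestine and in the colon of E16 mouse embryos, and in none of 5 other deposited peak lists. They were selected on the peak lists themselves, so their presence in 2 lists and absence from 5 is the definition and not a finding. Peaks of all 7 lists on the 19 autosomes and X were merged wherever they shared 1 bp or more, which gave 326695 regions. Of these, 11817 met the rule, or 3.62% of all regions.

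ATAC-seq maps accessible DNA by letting a transposase cut where nucleosomes leave room. The study profiled the developing mouse stomach and gut, with 1 library for each of 7 groups. The E16 intestine library was made from the proximal small intestine, and the E16 colon library from the colon. The other 5 groups were E16 hindstomach, which is the glandular part, E16 forestomach, which is squamous, E13 intestine, E13 stomach, and E16 stomach labelled as Sox2 knockout. Embryos described in the protocol were ShhCre; R26YFP/+, in which cells with a history of the Shh promoter, mainly gut epithelium, carry YFP. No treatment was given. At E13 (E13.5 in the protocol) whole organs were digested with trypsin and cells were sorted from several pooled embryos. At E16 (E16.5 in the protocol) the small intestine and colon epithelium was shaken loose in 5 mM EDTA, hindstomach epithelium in 10 mM EDTA, and forestomach epithelium was peeled after dispase. The genotype, the driver of the deletion and the isolation of the knockout stomach are not described further in the sources used here. Stage and isolation method therefore cannot be told apart in a comparison of E16 with E13. Preparations were bulk, so fewer cells of a type and weaker opening in each cell cannot be told apart either.

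The small intestine and the colon arise from neighbouring stretches of endoderm and share a programme led by the homeobox factor Cdx2, with the nuclear receptors Hnf4a and Hnf4g and with Gata factors. Between E13 and E16 the mouse gut tube turns from a uniform layered epithelium into villi with early absorptive and secretory cells. Open sites far from promoters are often enhancers, although openness alone does not show activity.

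The lists held from 81179 peaks in E13 intestine to 135743 peaks in E16 colon. E16 intestine had 97568 peaks and E16 colon 135743, with median peak widths of 130 and 124 bp. The files give a start and an end for each peak and no height, so the depth of each library is unknown, a missing peak is not evidence of closed chromatin, and no test between groups was possible with 1 library each. Intervals given for shares are 95% Wilson intervals, which describe the error of counting regions and nothing else.

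Few late intestine and colon regions lay at promoters, so the sequences that could be printed come from a small set. A member reached the window from 250 bases before to 50 bases after the start site of 12 of 17273 protein-coding genes in the RefSeq promoter table (GRCm38.p6), and 11 of those genes have a proper name. Of the 12 windows, 6 were covered by the member over at least 150 bases. The named genes are Aim2, a sensor of cytosolic DNA, Aoc1, the histamine-degrading diamine oxidase, Gstp3, a glutathione S-transferase, Hsd3b3, a steroid dehydrogenase, Rbm47, an RNA-binding cofactor of Apob RNA editing, Trim31, a ubiquitin ligase, Tnfsf13b, the B cell survival cytokine BAFF, and Insm2, Jaml, Tmem253 and Vmn1r1. Both peaks covered bases before the start site at 7 of them, namely Aim2, Gstp3, Hsd3b3, Rbm47, Tmem253, Tnfsf13b and Vmn1r1. Of these, Tmem253, Gstp3, Rbm47 and Hsd3b3 are shown, chosen after their values were seen, because they differ in which peak is longer and in where the overlap lies. Each line gives the 250 bases before the start site, read 5′ to 3′ on the gene's strand. Capitals mark the bases covered by both the intestine and the colon peak, uncertain by 1 base because the files do not say whether positions count from 0 or 1.
Tmem253 (chr14:52016615-52016864, plus strand): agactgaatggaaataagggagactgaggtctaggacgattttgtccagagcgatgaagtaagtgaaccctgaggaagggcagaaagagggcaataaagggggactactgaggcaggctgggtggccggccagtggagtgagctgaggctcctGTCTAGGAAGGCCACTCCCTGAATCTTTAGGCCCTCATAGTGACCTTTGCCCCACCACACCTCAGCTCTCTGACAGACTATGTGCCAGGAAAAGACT
Gstp3 (chr19:4059448-4059697, minus strand): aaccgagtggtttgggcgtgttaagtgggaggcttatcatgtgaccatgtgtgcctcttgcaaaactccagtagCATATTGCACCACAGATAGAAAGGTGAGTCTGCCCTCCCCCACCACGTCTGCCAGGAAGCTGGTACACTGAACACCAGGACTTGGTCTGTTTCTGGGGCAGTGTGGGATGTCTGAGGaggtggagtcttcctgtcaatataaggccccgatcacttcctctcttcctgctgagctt
Rbm47 (chr5:66098180-66098429, minus strand): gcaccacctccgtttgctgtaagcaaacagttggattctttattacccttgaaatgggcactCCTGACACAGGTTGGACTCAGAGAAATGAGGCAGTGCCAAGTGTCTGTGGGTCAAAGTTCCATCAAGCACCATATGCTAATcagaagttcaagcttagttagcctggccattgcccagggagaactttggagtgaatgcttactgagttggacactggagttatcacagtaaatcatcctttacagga
Hsd3b3 (chr3:98763129-98763378, minus strand): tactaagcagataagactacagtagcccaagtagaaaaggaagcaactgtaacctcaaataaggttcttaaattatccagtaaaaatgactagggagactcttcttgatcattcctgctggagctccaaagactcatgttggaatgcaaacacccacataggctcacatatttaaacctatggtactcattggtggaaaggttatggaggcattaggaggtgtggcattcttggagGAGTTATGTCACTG

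At Tmem253 the intestine peak spanned 154 bp and the colon peak 156 bp, and they shared 130 bp that ran across the start site. At Gstp3 the intestine peak was the longer, 295 bp against 117 bp in colon, and the colon peak lay wholly within it. Rbm47 showed the opposite arrangement, with 99 bp in intestine and 250 bp in colon, and its region ended 89 bp short of the start site. Hsd3b3 had 129 bp in intestine and 86 bp in colon, of which 85 bp were shared, mostly past the start.

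Trim31 is shown for the letters it holds rather than for its overlap. Its intestine peak of 431 bp ran over almost the whole window, while the colon peak of 137 bp stopped upstream of the printed bases. Capitals here mark the HNF4 letters (CAAAGTCCA, found on the opposite strand as TGGACTTTG) and the CDX letters (TTTATNG).
Trim31 (chr17:36897880-36898129, plus strand): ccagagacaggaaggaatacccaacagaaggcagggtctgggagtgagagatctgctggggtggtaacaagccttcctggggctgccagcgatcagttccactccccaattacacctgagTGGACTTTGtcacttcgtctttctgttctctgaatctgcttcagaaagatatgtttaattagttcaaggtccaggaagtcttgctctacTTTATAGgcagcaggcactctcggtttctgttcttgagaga

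Both strands of the 12 windows of 300 bases were searched for 17 motifs, of which 10 stood in at least 1 window. The whole window was searched, including bases that the member did not cover. The CDX letters stood in 2 windows (16.7%), Trim31 and Tmem253, against 10.1% of all 17273 windows. The HNF4 letters stood in 2 windows (16.7%), Trim31 and Hsd3b3, where they lie past the start, against 0.423% of all windows. At Trim31 the CDX and HNF4 letters lay in the intestine peak but outside the colon peak. At Tmem253 the CDX letters lay outside the member. The TEAD letters (GGAATG) were present in 4 windows (33.3%), against 13.3% of all windows, each time outside the member. The NF-Y letters (CCAAT) were present in 5 (41.7%), against 39.4%. The HOX letters (TTTATTA, which share their first 5 letters with CDX) and the KLF letters (GGGNGTGG) were in 2 windows each, against 4.12% and 19.4% of all windows. Single windows held the letters of AP-1 (TGANTCA), ETS (CCGGAAG), GRHL (AACNGGTT) and Gata factors (AGATAA), those of GRHL and Gata outside the member. The other 7 motifs were in no window, among them FOX (TGTTTAC), SOX (CATTGT), TCF/LEF (CTTTGAT), the E-box (CAGCTG), CTCF and p63. A count of 0 of 12 allows a share of up to 25%, taking 3 counts as the limit. With 12 windows these are descriptions only, and a run of letters is not a bound site. The 12 windows had a median GC content of 49.7% and 3.00 CpG, against 62.0% and 22.0 CpG in the 7600 windows reached by regions open in both E16 intestine and colon and in another list. The median over all windows was 56.3% and 14.0 CpG.

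Late intestine and colon regions made up 20.5% of what the E16 intestine and colon lists had in common, and much of the rest was shared with the E16 stomach. A peak of both lists was present in 57509 regions, and 11817 of these (interval 20.2 to 20.9%) were in no other list. As a share of a single list, members were 11817 of the 94418 E16 intestine regions (interval 12.3 to 12.7%) and 8.87% of the 133176 E16 colon regions (8.72 to 9.03%). Of the 57509 regions, 69.5% were also in the hindstomach list and 60.5% in the forestomach list. The E13 intestine list, from the same organ at the earlier stage, held 36.4%, the E13 stomach list 35.2% and the Sox2 knockout list 33.8%. Being in all 5 other lists was the most frequent pattern, with 14573 regions, and being in none came next. Hindstomach and forestomach together accounted for 11048 regions (19.2%), hindstomach alone for 6612 (11.5%), so that without the hindstomach list 18441 regions would meet the rule, and forestomach alone for 2894 (5.03%). E13 intestine was the single other list for 786 regions (1.37%), a fraction of the number of members; its list is also the shortest of the 7.

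**Figure D1:**
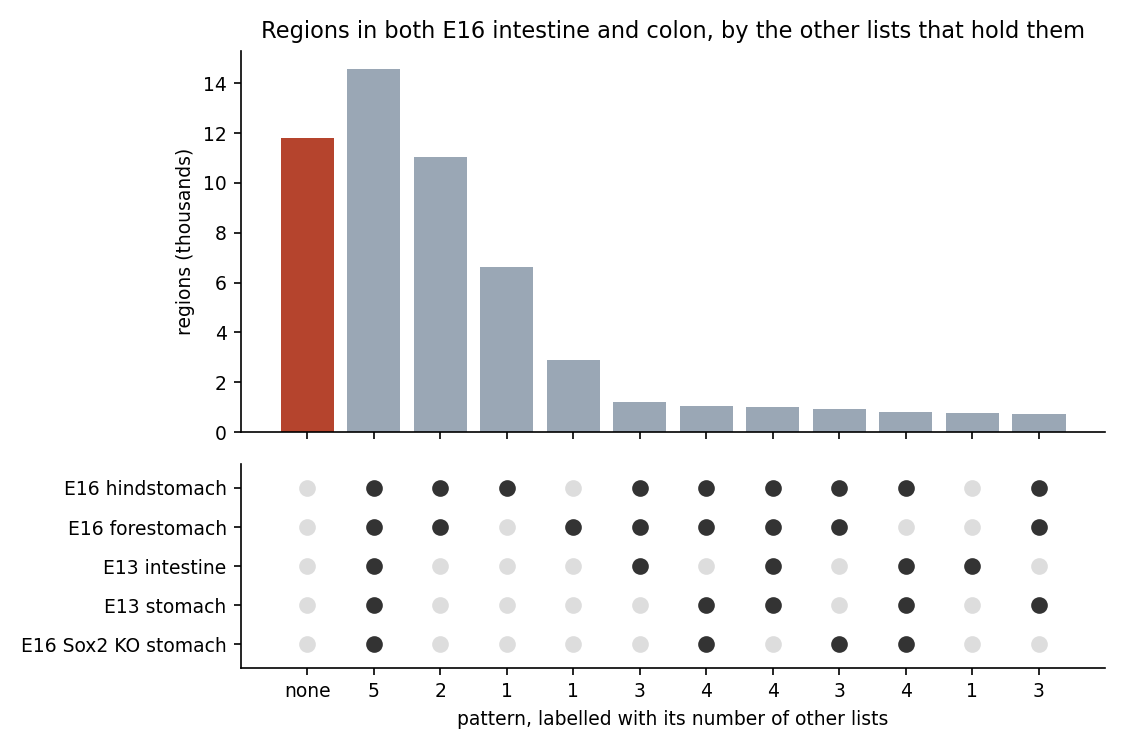
Regions open in both E16 intestine and colon, by the other lists that hold them (bars, regions divided by 1000; the 12 most frequent patterns). Dark dots below a bar mark the lists of that pattern, and the red bar is the 11817 regions in no other list, second to the 14573 regions in all 5 others.

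The peaks in these regions were narrow, and narrower than the other peaks of the same lists that intestine and colon shared. In the E16 intestine list, member peaks had a median width of 107 bp (quartiles 89.0 and 138 bp), against 173 bp for peaks in both and in other lists. In the E16 colon list the medians were 118 bp (95 and 158 bp) and 178 bp. Peaks present in 1 list alone were narrower still, with medians of 97.0 bp in intestine and 100 bp in colon. Each list has a smallest peak width, 87 bp in intestine and 86 bp in colon, and many member peaks sat on it. Within 1 bp of that width were 23.6% of member peaks in intestine, against 6.69% of peaks in both and in other lists and 37.1% of peaks in intestine alone. In colon these shares were 15.3% for members, 5.03% for peaks in both and in other lists, and 32.1% for peaks in colon alone. Width comes from the same peaks as the rule. Its relation to peak height, which the files do not give, could not be checked.

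**Figure D2:**
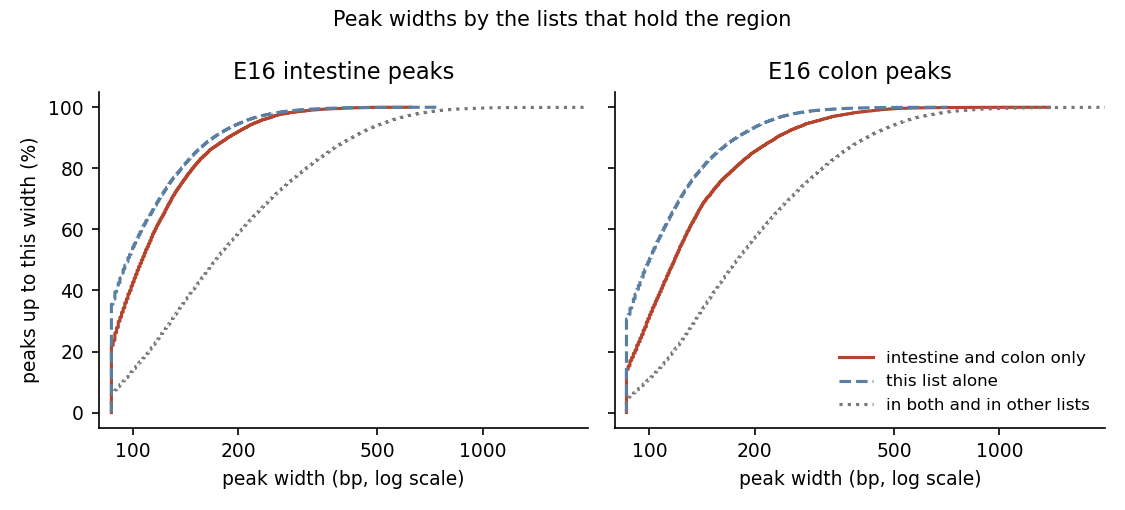
Cumulative share of peaks up to each width (log scale, bp) in the E16 intestine and E16 colon lists. The red line, member peaks, lies between peaks of the list alone (blue, dashed) and peaks in both and in other lists (grey, dotted), with medians of 107 bp in intestine and 118 bp in colon.

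Within the members the intestine and the colon peak nearly coincided. The bases covered in both had a median of 88.0 bp (quartiles 80 and 108 bp, range 1 to 669 bp), and the peak centres lay a median of 19 bp apart. In 4695 members (39.7%) the shorter peak lay wholly inside the longer, and in 11253 (95.2%) at least 50% of the shorter peak was shared. All but 56 members had exactly 1 peak in each list. Among the 11761 members with 1 peak in each list, the intestine peak was the wider in 4815 (40.9%) and the colon peak in 6814 (57.9%). Close to the limit of the rule, 32 members shared 1 to 10 bp, while 42 intestine-alone regions lay within 10 bp of a colon-alone region and so fell just outside. Another list came within 10 bp of 25 members, and 34 regions open in both were lost because other lists touched them over 10 bp or less.

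A neighbouring open site in another library was usually kilobases away. The rule bars overlap with the other lists, so some gap is part of the definition. No such distance is given here for other classes of region. The nearest peak of any of the other 5 lists lay a median of 3.28 kb from a member (quartiles 1.21 and 7.33 kb), and 1380 members (11.7%) had one within 500 bp. By list, the median distance was 7.5 kb to hindstomach, 9.68 kb to forestomach, 11.3 kb to E13 intestine, 8.86 kb to E13 stomach and 8.90 kb to Sox2 knockout stomach. The number of peaks in a list bears on this distance, and hindstomach was the longest of the 5, with 113117.

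Late intestine and colon regions were distal. Only 261 of the 11817 (2.21%, interval 1.96 to 2.49%) lay at a gene end, meaning at most 1 kb from the start or the finish of any protein-coding gene body, and 41.6% lay inside a gene body. A further 22.7%, or 2683 regions, were more than 100 kb from any gene body, and the median distance to a gene end was 41.7 kb. Over all 326695 regions, 8.32% lay at gene ends, 47.3% in gene bodies and 19% over 100 kb away, with a median distance of 31.2 kb. Regions in all 7 lists had 55.9% at gene ends, a median distance of 0.254 kb and 4.54% far from genes. Regions in E16 intestine alone had 4.03% at gene ends and a median distance of 33.5 kb, and regions in E16 colon alone 2.56% and 44.0 kb. The 786 regions that E13 intestine also held had 4.83% at gene ends (3.54 to 6.57%), and the 6486 regions in forestomach and hindstomach only had 5.52%, with a median distance of 22.6 kb. Regions in hindstomach, E16 intestine and colon only were alike in this, with 2.27% at gene ends and 41.6 kb. The share at gene ends varied little with how far the 2 peaks overlapped. With members ordered by shared bases and cut into 4 equal groups, the share at gene ends was 2.27, 2.06, 2.23 and 2.27% from fewest to most. The share over 100 kb from genes was 22.6, 24.9, 24.4 and 18.9%, lowest in the group with the most shared bases.

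**Figure D3:**
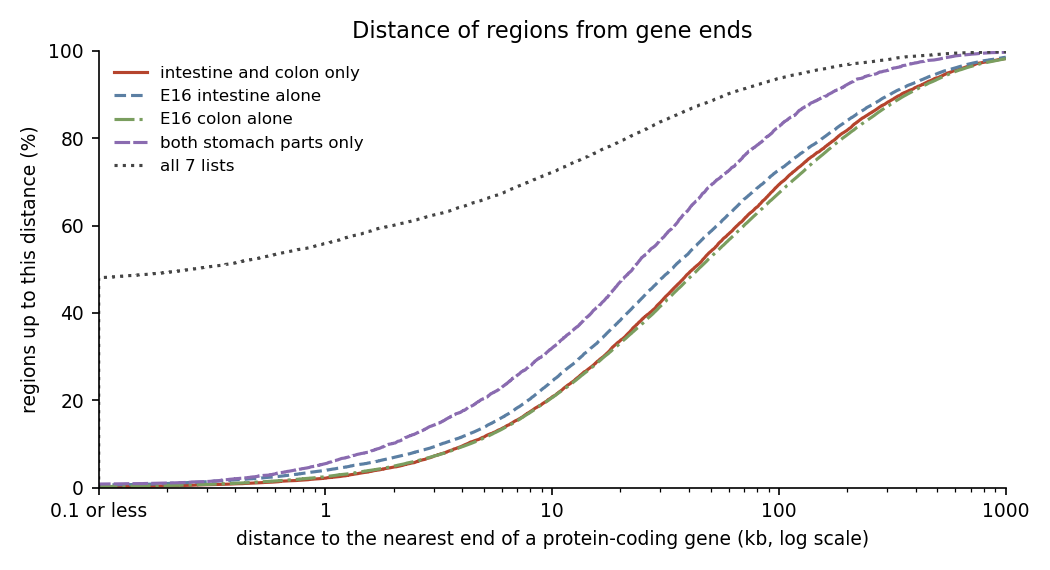
Cumulative share of regions up to each distance from the nearest end of a protein-coding gene (kb, log scale). Members (red) run with regions in E16 colon alone and far below regions in all 7 lists, of which 55.9% lie within 1 kb.

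Members were spread over the genome rather than stacked at a few loci. Their share of all regions on a chromosome lay between 3.07% on X and 3.93% on chromosome 17. Joined into runs where the gap between neighbours was small, 10270 members (86.9%) stood alone, 690 runs held 2, 49 runs held 3 and 5 runs held 4. The 5 longest runs lay at the arrestin-domain gene Arrdc4 (chr7:68709183-68740868), at Kif2a, a kinesin that shortens microtubules (chr13:107105886-107121515), at Spats2 (chr15:99169915-99187273), at the potassium channel gene Kcnj15 (chr16:95266167-95299027) and at the predicted gene Gm7827 (chr8:71130794-71142786).

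Regions were labelled with the closest gene body, up to a limit of 100 kb, which placed 9134 members (77.3%) at 5617 genes, or 27.4% of the 20476 genes with any region. A nearest gene is a label of position, not a target. Of the 5617, 3709 had 1 member, 1142 had 2 and 766 had 3 or more. Genes with a member were long, with a median length of 48.0 kb against 18.9 kb over all genes with a region, and they had a median of 19 regions against 7. The share of genes with a member climbed from 6.40% at genes with 1 to 5 regions to 92.4% at genes with more than 50. Members as a share of all regions at these genes climbed too, from 2.34% to 4.01% between the same groups. Gene counts were therefore read beside a second measure. It was the members as a share of the regions open in both E16 intestine and colon at the same genes. Over all genes this share was 19.3% (18.9 to 19.6%). Its dependence on the number of regions per gene was not examined.

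The genes with the most members were very long ones. Rbfox1, an RNA splicing factor of neurons and muscle, had 16 members among 41 regions open in both, Rbms3, an RNA-binding protein, 13 of 54, and the oxidoreductase gene Wwox 12 of 31. Tenm3, Cdh13, Auts2, Lpp, Asic2, Dpp10 and Sdk1 had 10 to 12. The 12 leading genes had a median length of 1070 kb, and the twelfth, the immunoglobulin superfamily gene Igsf21, was much shorter at 220 kb, with 9 members among 17 regions open in both. Ranked by share among genes with at least 8 regions, the leaders were small loci with few regions each. Oas1f, of the antiviral oligoadenylate synthetase family, had 3 members among 8 regions (37.5%), and those 3 were all of its regions open in both. Itln1, the gut lectin intelectin 1, had 3 of 10 regions, Casp8, an initiator caspase, 3 of 11, Npy2r, a receptor of peptide YY, 6 of 24 and Spats2 5 of 20. Rpl39l, Zfp345, Nptx1, Prg4, Glrx5, Iglon5 and Klhdc10 had 3 members each.

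Regions at Cdx2 and Hnf4a that were open in both were open in other lists too. Cdx2 had 4 regions open in both E16 intestine and colon, and E13 intestine and hindstomach held all 4, so none was a member. Hnf4a had 5 regions open in both and 0 members, and E13 intestine held 4 of the 5. Its paralogue Hnf4g had 3 members among 7 regions open in both, all in the gene body. The widest was chr3:3633925-3634313, where the intestine peak of 388 bp enclosed the colon peak of 203 bp and the nearest peak of another list was 11.4 kb away. Tcf7l2, the partner of beta-catenin in Wnt signalling, had 3 of 19, and Nr5a2, an orphan nuclear receptor of gut and pancreas, 2 of 13. Over the 18 intestinal transcription factor genes, 11 had a member, and 22 of 117 regions open in both were members (18.8%, 12.8 to 26.8%), close to 19.3% over all genes. The smaller set of gut nuclear receptors had 9 of 56 (16.1%, 8.69 to 27.8%), with 3 members each at Rarb and Thrb, the retinoic acid and thyroid hormone receptors. With every list cut to its 81179 widest peaks, the length of the shortest list, these receptors had 1 of 33 (3.03%).

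Among absorptive genes, those of the brush border had a higher share than those of lipid handling and transport, with intervals that overlap. Brush border genes, which encode the digestive enzymes and the scaffold of the microvilli, had a member at 14 of 28 genes, and 22 of their 87 regions open in both were members (25.3%, 17.3 to 35.3%). Mgam, the starch-digesting maltase-glucoamylase, led with 4 members among 10. Its longest overlap was at chr6:40635547-40635918 in the gene body, where an intestine peak of 337 bp and a colon peak of 321 bp shared 287 bp. At higher positions, chr6:40732116-40732242 had peaks of 87 bp in intestine and 126 bp in colon, and the last pair of members had longer peaks in intestine (245 and 314 bp) than in colon (139 and 86 bp). Eps8, which caps actin filaments in microvilli, had 3 of 10, Ezr, which links actin to the membrane, 2 of 10, and the peptidase genes Anpep and Dpp4 had 2 of 3 and 2 of 5. Lct, which encodes lactase, had a single region open in both, and it was a member: chr1:128323264-128323727 had a peak of 463 bp in intestine and of 91 bp in colon. Sis, sucrase-isomaltase, likewise had 1 of 1.

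Lipid-handling genes of enterocytes had few members. They were 5 of 52 regions open in both (9.62%, 4.18 to 20.6%), at 4 of 22 genes: Scarb1, a lipoprotein receptor, had 2, and Mttp, Fabp2 and Sar1b had 1 each. Hindstomach held 86.5% of the regions open in both at these genes, against 71.4% over all genes, and E13 intestine 51.9%, against 40.1%. Nutrient and ion transporters had 16 of 113 (14.2%, 8.91 to 21.8%), with 4 of 18 at the bicarbonate cotransporter gene Slc4a4 and 2 of 3 at Slc10a2, the ileal bile acid transporter. With lists trimmed to equal length, the shares were 23.9% at brush border, 11.1% at lipid and 10.1% at transporter genes. At Slc15a1, which encodes the peptide transporter of enterocytes, chr14:121471515-121471981 had an intestine peak of 466 bp over a colon peak of 200 bp.

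Among secretory genes the share was lower at goblet cell genes than at enteroendocrine genes, again with overlapping intervals. Goblet cell genes had 6 of 54 (11.1%, 5.19 to 22.2%). For 2 of them the closest gene was the pioneer factor gene Foxa2, 83.6 and 96.5 kb away. Another lay in St6galnac1, a mucin sialyltransferase gene (chr11:116770401-116770691, 206 bp in intestine and 254 bp in colon). Enteroendocrine genes had 14 of 55 (25.5%, 15.8 to 38.3%). Within 10 kb of gene bodies, 4 enteroendocrine genes had a member, against 10 within 100 kb. For goblet cell genes these counts were 3 and 5. The hormone genes Sst and Cck had 3 of 4 and 2 of 2, the endocrine regulators Neurog3 and Nkx2-2 had 1 of 1 and 1 of 4, and Lmx1a had 2 of 7.

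Wnt and stem cell genes stood near the background, with 17 of 96 (17.7%, 11.4 to 26.5%). Cd44, a Wnt target of crypts, had 3 members among 9 regions open in both, Lgr5, the stem cell receptor, 2 of 7, Axin2, a feedback inhibitor of the pathway, 2 of 6, and Rgmb and Lgr4 2 of 6 and 2 of 5. Junction genes had 15 of 70 (21.4%, 13.4 to 32.4%), with 5 of 17 at Tjp1, the scaffold ZO-1, 3 of 6 at the claudin gene Cldn1 and 2 of 10 at Ocln, occludin.

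Genes that mark a stretch of the gut were found on either side of the background, within wide intervals. Colon identity genes had 10 of 39 (25.6%, 14.6 to 41.1%), with 2 of 2 at Fxyd4, a regulator of the sodium pump, and 2 of 5 at Lypd8. Proximal small intestine genes had 7 of 42 (16.7%, 8.32 to 30.6%), 1 each at 7 genes. Posterior Hox genes had only 7 regions open in both, of which 2 were members, at Hoxb13 and Hoxd11, and 1 of 6 with lists trimmed to equal length. Genes of the stomach were not empty of members: glandular stomach genes had 8 of 35 (22.9%, 12.1 to 39.0%) and squamous genes 8 of 31 (25.8%, 13.7 to 43.2%). Gkn1, a secreted protein of the glandular stomach, had 2 of 2, the basement membrane integrin gene Itgb4 2 of 2, and Sox2, the stomach factor deleted in the knockout, 2 of 6, with its members 44.6 and 45.8 kb from the gene.

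The highest shares were at Hedgehog genes and at markers of endothelium, neural cells and blood, but not at mesenchyme markers. Hedgehog genes, the epithelium-to-mesenchyme signal of the gut tube, had 22 members among 58 regions open in both (37.9%, 26.6 to 50.8%). Shh, the ligand gene, had 1 of 5, and Ptch1, which encodes its receptor, 1 of 5. Gli2 and Gli3, the transcription factors of the pathway, had 7 of 13 and 6 of 13, Hhip, a Hedgehog-binding inhibitor, 5 of 11, and Sufu, which restrains Gli proteins, 2 of 6. At Gli2 the 7 members were scattered from 27.0 kb beyond one end of the gene to 71.8 kb beyond the other, with intestine peaks of 87 to 163 bp and colon peaks of 86 to 203 bp. The widest overlap of the set was at Hhip, chr8:80038593-80038860, with an intestine peak of 220 bp inside a colon peak of 267 bp.

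Endothelium markers had 19 of 51 (37.3%, 25.3 to 51%), neural crest and neuron markers 12 of 33 (36.4%, 22.2 to 53.4%) and blood and immune markers 18 of 53 (34.0%, 22.7 to 47.4%). Mesenchyme markers had 10 of 53 (18.9%, 10.6 to 31.4%) and pan-epithelial genes 14 of 90 (15.6%, 9.50 to 24.4%). Kdr, the VEGF receptor of blood vessels, had 4 members among 5 regions open in both, and Erg, an endothelial ETS factor, 5 of 9. The Kdr member with the most shared bases, chr5:75931718-75931998, lay 0.829 kb from the gene body and had a peak of 268 bp in intestine and 274 bp in colon. Emcn and Flt1 had 3 of 5 and 3 of 12, and Cdh5 and Tek 2 of 4 and 2 of 3. Ptprc, which encodes the pan-leukocyte surface protein CD45, had 3 of 3, and Ikzf1, a lymphoid transcription factor, 2 of 2. Of the other blood regulators Tal1 had 2 of 3, Vav1 2 of 5, Fli1 2 of 8 and Runx1 2 of 16. Ednrb, the endothelin receptor of neural crest cells, had 4 of 8, and the neuronal RNA-binding gene Elavl4 2 of 7. Among mesenchyme markers Foxf1, a Hedgehog target, had 4 of 6, Twist2 3 of 10 and Pdgfra 2 of 6. Among epithelial genes Grhl2, a regulator of cell junctions, had 3 of 11, the adhesion gene Epcam 2 of 11, and the factors Klf5 and Ehf 2 of 7 and 2 of 6. E13 intestine held 17.6% of the regions open in both at endothelium markers and 15.2% of those at neural markers, against 40.1% over all genes. When each list was trimmed to its widest peaks at the length of the shortest list, the share over all genes was 16.7%, and the shares were 40.0% at Hedgehog genes, 36.8% at endothelium, 39.1% at neural and 22.2% (8 of 36) at blood markers, the last below brush border and colon identity genes (24.1%).

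**Figure D4:**
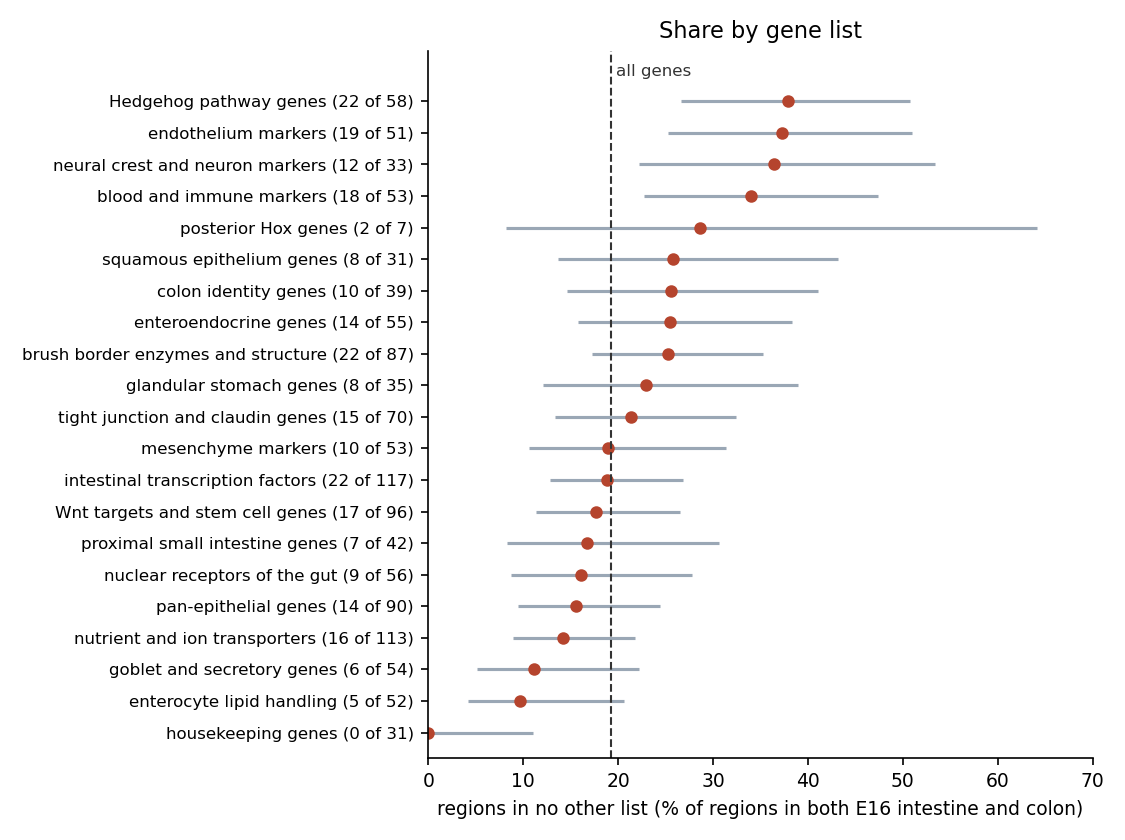
Members as a percentage of regions open in both E16 intestine and colon, by gene list (red points, with 95% Wilson intervals; counts in brackets). The dashed line is the value over all genes, 19.3%; the intervals of Hedgehog, endothelium, neural and blood lists lie above it and that of housekeeping genes, 0 of 31, below it.

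Openness at markers of other cell types was present in all 7 lists. All 20 pan-epithelial genes had a region in the E16 intestine and E16 colon lists, as in the other 5, so presence alone does not tell the lists apart. They took 0.174% of regions at genes in intestine and 0.151% in colon, against 0.175 to 0.220% elsewhere. Colon was thus the lowest, while E16 intestine was nearly equal to E13 intestine (0.175%). Mesenchyme markers took 0.114% in intestine and 0.122% in colon, against 0.115 to 0.139% elsewhere. Tagln had no region in either gut list, nor in forestomach or hindstomach, and Twist1 had none in intestine or hindstomach. Endothelium markers took 0.104% in intestine and 0.116% in colon, against 0.10 to 0.124% elsewhere. Blood and immune markers took 0.0947% in intestine and 0.113% in colon, against 0.0621 to 0.0837% elsewhere, so both gut lists were above the other 5. The alpha-globin gene Hba-a1 and Lyl1 had no region in either, nor in forestomach or hindstomach. Gata1 and Cd8a were among the markers with none in intestine, and forestomach had none at them either. Neural markers took 0.0652% in intestine and 0.0703% in colon, against 0.0536 to 0.0781% elsewhere. Sox10 had no region in either gut list, nor in forestomach or hindstomach. The part of other cell types in the members was not tested.

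Housekeeping genes had no member when regions were labelled with the closest gene body. Their 15 genes had 31 regions open in both, and 0 of 31 allows a share of up to 9.68% if 3 counts are taken as the limit, or 11% by the Wilson interval. E13 intestine also held 83.9% of those 31. The count of 0 depended on the rule. With regions given to the nearest start site within 100 kb, 3 of the 15 genes had a member. With only the peaks above the median width of each list, 1 gene had a member. These genes also had few regions, a median of 3 against 7 over all genes with a region.

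**Figure D5:**
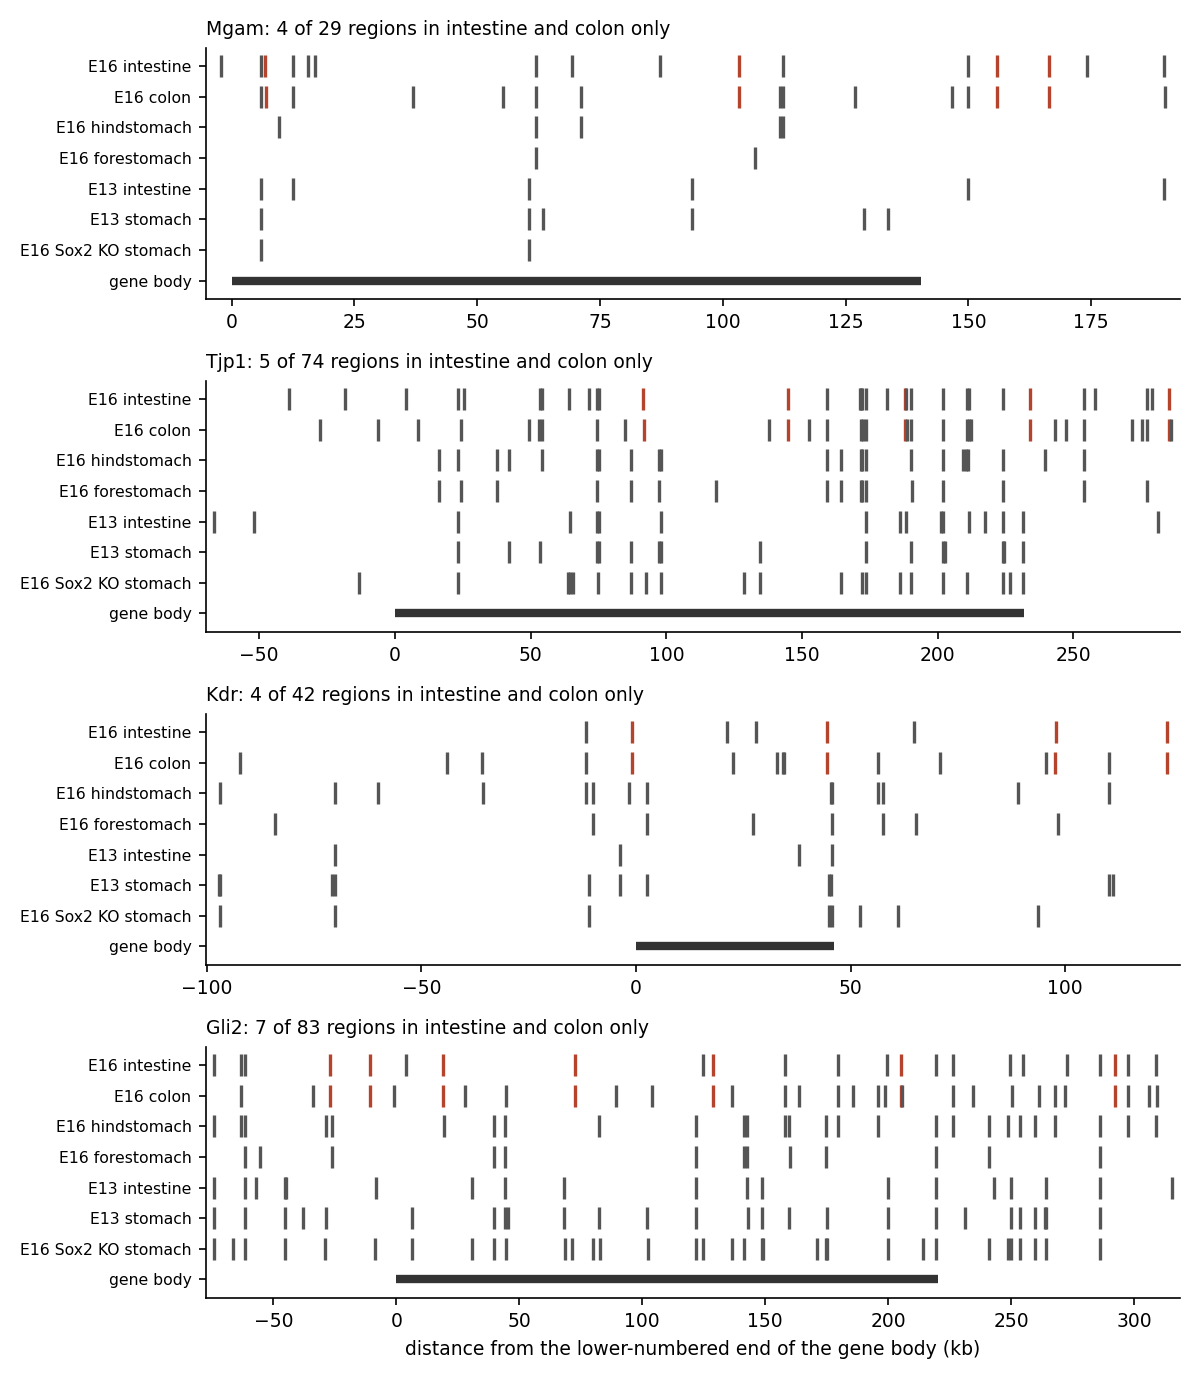
Peaks of the 7 lists (ticks at peak centres) by distance from the lower-numbered end of the gene body (kb) at Mgam, Tjp1, Kdr and Gli2, with the gene body as a bar. Red ticks are members, 4 at Mgam, 5 at Tjp1, 4 at Kdr and 7 at Gli2, scattered among peaks that other lists share.

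The members with the most shared bases were few and of mixed position. Tgfb2, which encodes a TGF-beta ligand, had the longest, 669 bp shared between 2 intestine peaks and a colon peak of 878 bp at chr1:186709762-186710656, 0.0650 kb from the gene body. Next were regions in the bodies of Cacna2d1, a calcium channel subunit gene, with 492 bp (chr5:16300224-16300811), and of Ptgis, the prostacyclin synthase gene, with 485 bp (chr2:167216766-167217566). A pair of the leading 10 lay 276 and 343 kb from any gene.

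MicroRNA hairpins gave a further view of noncoding genes near members. Of 1005 hairpins in the RefSeq table, 31 had a member within 5 kb, against 323 with a region open in both within 5 kb, and 4 had one within 1 kb. Mature sequences are shown for 3 of them, chosen after their distances were seen: Mir370, whose hairpin the intestine peak of a member reaches (chr12:109618154-109618287) while the colon peak ends at about its first base, Mir31, a miRNA of proliferating epithelium with a member 1.68 kb away, and Mir802, a miRNA of gut and liver with a member 2.67 kb away. Capitals mark the seed, bases 2 to 8, and the 3 seeds differ.
miR-370-3p: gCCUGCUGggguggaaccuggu
miR-31-5p: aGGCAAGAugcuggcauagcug
miR-802-5p: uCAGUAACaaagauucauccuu
The member at Mir31 had peaks of 87 bp in intestine and 123 bp in colon, and that at Mir802 87 bp in intestine and 114 bp in colon, so both were narrow like most members.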

How the data were processed

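ATAC-seq peak lists of 7 libraries, 1 per group, were used. Per the submitters' processing notes, reads were handled with cutadapt, Bowtie2 and MACS2 on GRCm38/mm10; no source used here gives versions, thresholds or pooling. The authors deposited 3 columns per peak, for its chromosome and its bounds, so the unit is a position, other than a signal or score, with no normalization, and depth is unknown. Positions are printed as deposited.

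Peaks on the 19 autosomes and X were merged at 1 bp of overlap, and a region belonged to a list with a peak in it. Regions were labelled with the closest protein-coding RefSeq gene body (GRCm38.p6), up to 100 kb away. That table lacks strand, so start and finish of a gene were treated alike as gene ends, with a 1 kb window. The promoter table has no chromosome 18 and 79.9% of protein-coding genes. Its strand was checked on 824 overlapping window pairs, all matching. The merging and assignment were tested on simulated data. Shares have 95% Wilson intervals; no test was run, with 1 library per group.

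The members, the 21 gene lists (397 genes, all found, 2 by synonym) and the rules were chosen with earlier results of these data known. Named genes were, leaving out predicted ones, the 12 with the most members, the 12 with the largest share among genes with at least 8 regions, up to 5 per list with at least 2 members, and always Cdx2, Hnf4a, Hnf4g and Sox2; genes named with 1 member, or after that limit, were chosen after their values were seen, and some genes the rule selects are not reported here. Runs join members at most 12.5 kb apart. Alternatives changed overlap, merging, width, lists and gene assignment. Python with pandas, numpy and scipy was used.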

Additional observations from a re-analysis of the deposited data

Results flagged for a closer look

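Chromosome Y was left out of the rule, and it also holds regions with a peak in exactly the E16 intestine and colon lists. There were 110 of them among 1807 Y regions (6.09%). Both gut lists had many Y regions, 711 in E16 intestine and 1108 in E16 colon, against 632 in hindstomach, 561 in forestomach, 180 in E13 intestine, 176 in E13 stomach and 67 in Sox2 knockout stomach. No source used here gives the share of male embryos per library, and its part in these counts was not tested.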

How the results depend on the processing

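The number of members was 11817 and lay within 1.5 times of that with 50% overlap of the shorter peak (11253), merging across 100 bp (11736), removal of members with another list within 500 bp (10437), and leaving out any of the other lists except hindstomach (12004 to 14749). Without the hindstomach list it was 18441. With every list cut to its 81179 widest peaks, the length of the shortest list, it was 7644, with shares of 9.73% of intestine, 9.60% of colon and 17.9% of regions open in both, and a median width of 173 bp. With the wider part of each list it was 6741, with 14.3%, 10.2% and 22.4%. Both 17.9% and 22.4% come from alternatives chosen after seeing the data. At 50% overlap the shares were 11.9% of intestine and 8.45% of colon regions. The share at gene ends was 1.13% with a window of 500 bp, 5.91% with 2500 bp and 1.18% at start sites only. Bases covered in both lists had a median of 88.0 bp. Genes with a member numbered 3821 to 5591 over the alternatives, against 5617. Of 21 gene lists, the count of genes with a member moved by over 1.5 times in 6 with the widest peaks, 10 with the wider part, 7 with gene bodies extended by 10 kb, 9 with start sites, 1 away from gene ends and 0 under the other merging rules. Motif windows centred on regions were not run, since they need a genome sequence. No paired analysis was possible because each group has 1 library. Peak heights and depth are unknown, which limits every count here.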
